A study of Mus musculus with 6 samples.

Results

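Fos, Nr4a1, Dusp1 and Dusp6 were examined as 4 genes that cells switch on soon after a signal reaches them, chosen by gene symbol from the 559 genes of the deposited table. All 4 symbols were found in it. The RNA came from C57BL/6 mouse spleens, from which natural killer (NK) cells, cytotoxic lymphocytes of the innate immune system, had been purified. The cells were kept for 36 h without added fatty acid (control, 3 libraries) or with oleic acid (OA, a monounsaturated fatty acid) at 0.2 mM (3 libraries), and their RNA was sequenced. The labels give no allele, age or sex, and say that the treatment was carried out 1 time. They do not say whether the libraries of a group came from separate mice or cultures, so the p-values measure the spread between these libraries, which may be technical. Values are in TPM, the share of a library that a transcript takes after correction for its length, and every gene in the table had an authors' Q value under 0.05 for this same comparison. A gene outside the table was not analysed here. Read numbers cannot be recovered from TPM, so depth is unknown.

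Immediate early genes are transcribed within minutes of receptor signalling, without new protein synthesis, and their short-lived transcripts are removed quickly. Many of them answer to the MAP kinases ERK, JNK and p38. Fos encodes a subunit of the transcription factor AP-1, and Nr4a1 encodes the orphan nuclear receptor Nur77, which lymphocytes induce when their activating receptors are engaged. Dusp1 and Dusp6 encode dual-specificity phosphatases, which take phosphate off the threonine and tyrosine of active MAP kinases. Dusp1 protein acts in the nucleus on p38, JNK and ERK, and Dusp6 protein acts in the cytoplasm with a preference for ERK. Transcription of both phosphatase genes is itself raised by MAP kinase signalling, which makes them feedback inhibitors. All libraries here were taken at 36 h, so they do not show a response within minutes or when a level began to differ.

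All 4 genes were higher after OA, by 1.26-fold to 1.45-fold in mean TPM, and all 4 passed the test (limma on log2(TPM + 1), Benjamini-Hochberg adjusted p under 0.05). For each of them the lowest OA library was above the highest control library. Over the whole table, 36.0% of genes were called higher by the same rule, and 45.1% were higher without overlap, because the table was selected on this comparison. The 4 genes were themselves picked with results of these libraries known, so the count of 4 of 4 describes them and gives no separate evidence. The adjustment ran over the 559 selected genes only. Adjusted p-values here and below therefore do not measure the share of false calls among all genes sequenced, and a pass was likely beforehand.

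The promoters are shown because cyclic AMP response elements (CRE), bound by the signal-dependent factor CREB, are classical elements of immediate early promoters. Each sequence is the RefSeq window on GRCm38.p6 from 250 bases before to 50 bases after the transcription start site, 5′ to 3′ on the gene's own strand. For Nr4a1 it is the window of a start site 12944 bases inside the RefSeq gene, not of the outermost start; for the other 3 it is at the gene's start. Capitals mark the CRE half-site TGACG on either strand (CGTCA where it lies on the other strand) and, on the sense strand, the TATA box TATAAA.
Fos, chr12:85473640-85473939, plus strand: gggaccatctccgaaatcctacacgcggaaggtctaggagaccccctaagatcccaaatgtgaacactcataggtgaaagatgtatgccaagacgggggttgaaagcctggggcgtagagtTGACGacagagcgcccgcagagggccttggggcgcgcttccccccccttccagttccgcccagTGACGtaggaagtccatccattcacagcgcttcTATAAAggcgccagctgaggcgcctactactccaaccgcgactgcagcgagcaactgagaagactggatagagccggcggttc
Nr4a1, chr15:101266596-101266895, plus strand: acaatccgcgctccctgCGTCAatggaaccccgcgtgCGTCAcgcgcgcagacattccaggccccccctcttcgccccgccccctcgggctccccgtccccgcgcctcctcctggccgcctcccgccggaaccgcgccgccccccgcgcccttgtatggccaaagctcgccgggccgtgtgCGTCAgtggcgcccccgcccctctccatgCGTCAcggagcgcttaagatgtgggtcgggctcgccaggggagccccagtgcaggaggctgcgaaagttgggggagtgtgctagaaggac
Dusp1, chr17:26508423-26508722, minus strand: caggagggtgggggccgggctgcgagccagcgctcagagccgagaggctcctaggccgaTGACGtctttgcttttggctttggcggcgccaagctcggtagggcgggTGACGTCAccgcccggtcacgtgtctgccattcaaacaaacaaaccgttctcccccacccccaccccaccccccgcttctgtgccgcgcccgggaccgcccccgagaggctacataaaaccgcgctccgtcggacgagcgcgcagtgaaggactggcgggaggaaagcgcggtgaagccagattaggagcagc
Dusp6, chr10:99262981-99263280, plus strand: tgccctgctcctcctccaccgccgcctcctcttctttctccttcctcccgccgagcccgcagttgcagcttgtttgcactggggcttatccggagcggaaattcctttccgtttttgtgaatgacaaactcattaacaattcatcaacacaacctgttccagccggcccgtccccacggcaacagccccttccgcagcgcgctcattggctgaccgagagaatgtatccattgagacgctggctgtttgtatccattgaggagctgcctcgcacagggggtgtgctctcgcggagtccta

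Half-sites lay in 3 of the 4 windows. Fos held 2, at −129 to −125 and −66 to −62 from the start site, and a TATA box at −33 to −28. Nr4a1 held 4, the nearest at −40 to −36. Dusp1 held 3 by the same count, of which 2 overlap in a full CRE, TGACGTCA, at −143 to −136. Dusp6 held none of the motifs searched. Of 32817 RefSeq windows of this length, 20.8% held at least 1 half-site, 5.01% at least 2, 1.03% at least 3 and 0.232% at least 4. The full CRE was in 1.79% of them and the TATA box in 8.32%. Of 537 windows of listed genes, which moved in both directions, 19.7% held at least 1 half-site and 0.745% the full CRE. The half-site contains a CG pair, and the G and C share of each of the 4 windows was above the median of 52.7%. It was 58.7% in Fos, 72.3% in Nr4a1, 67.0% in Dusp1 and 57.3% in Dusp6. These shares stood above 67.1%, 93.5%, 85.6% and 63.5% of all RefSeq windows, in that order. The CArG box of the serum response element (1.63% of windows), the AP-1 site TGAGTCA (5.20%), the NR4A monomer site AAAGGTCA (1.51%) and the direct repeat bound by PPAR (AGGTCA at both ends of 1 free base; 0.0396%), all searched on both strands, were in none of the 4 windows. These are matches of letters in a short window and do not show where a factor bound. Sites upstream of the window were not searched, and variants of a motif were not counted. Absence from a window therefore does not show that a gene lacks the element.

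**Figure D1:**
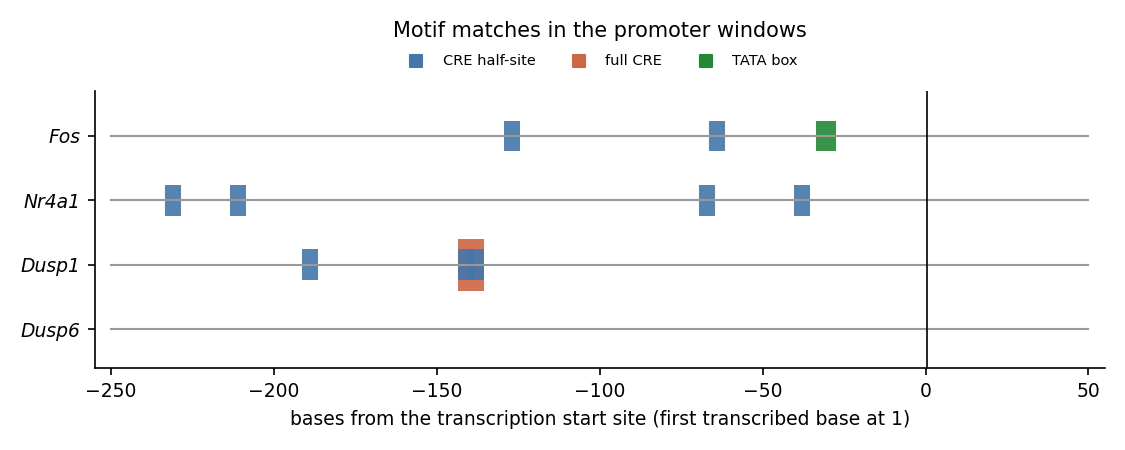
Motif matches in the promoter windows of the 4 genes, by distance in bases from the transcription start site (vertical line). Blue boxes are CRE half-sites, the orange box is the full CRE and the green box is the TATA box; the windows of Fos, Nr4a1 and Dusp1 hold 2, 4 and 3 half-sites and that of Dusp6 holds none.

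Fos, Dusp1 and Dusp6 are short genes in RefSeq. On GRCm38.p6, RefSeq places Fos on chromosome 12 (85473890 to 85477274), Nr4a1 on chromosome 15 (101253902 to 101274795), Dusp1 on chromosome 17 (26505591 to 26508472) and Dusp6 on chromosome 10 (99263231 to 99267489). Fos, Dusp1 and Dusp6 span 3385, 2882 and 4259 bases and Nr4a1 spans 20894, against a median of 17149 over 21896 coding genes. The principal GENCODE M21 transcripts have 4 exons in Fos, 8 in Nr4a1, 4 in Dusp1 and 3 in Dusp6. For Dusp1, GENCODE M21 gives a gene span of 56539 bases, unlike RefSeq, with a principal transcript of 1990 bases.

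AU-rich elements built from ATTTA in the 3′ UTR mark many short-lived transcripts for decay. The 3′ UTR of the principal transcript held 4 copies of ATTTA in Fos, 3 in Nr4a1, 4 in Dusp1 and 1 in Dusp6, counting overlapping copies, against a median of 1 over 20999 coding genes. Per 1000 bases of 3′ UTR this came to 4.91, 5.52, 5.80 and 0.841 copies, against a median of 1.17. By this density Fos, Nr4a1 and Dusp1 stood above 91.7%, 93.8% and 94.4% of coding genes and Dusp6 above 43.7%. By number of copies Fos, Nr4a1, Dusp1 and Dusp6 stood above 74.2%, 66.7%, 74.2% and 37.3%. Their 3′ UTRs were 815, 543, 690 and 1189 bases long, against a median of 848. The 30 bases around the densest copies (ATTTA in capitals) show the paired, overlapping copies of Fos and Dusp1 beside the spaced pair of Nr4a1.
Fos, 3′ UTR bases 642 to 671: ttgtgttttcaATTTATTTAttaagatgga
Nr4a1, 3′ UTR bases 449 to 478: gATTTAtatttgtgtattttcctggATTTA
Dusp1, 3′ UTR bases 94 to 123: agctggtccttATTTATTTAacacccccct

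The Fos transcript was measured at 60.00, 66.04 and 61.60 TPM in control replicates 1 to 3, in that order, and at 80.87, 85.76 and 104.66 TPM after OA, in the same order. Every OA library was above every control library, with a gap of 14.8 TPM, and OA replicate 3 was well above the other OA libraries. The mean rose from 62.5 ± 3.13 to 90.4 ± 12.6 TPM (SD, n = 3 per group), or 1.45-fold, with a log2 change of 0.52 (SE 0.11, 95% interval 0.24 to 0.80, adjusted p = 0.026, limma). Fos was the member with the largest change and the widest spread after OA (coefficient of variation 13.9%, against 5.0% in control). Without OA replicate 3 the log2 change was 0.41 and was called (adjusted p = 0.0357, limma). The call was lost without control replicate 1 (adjusted p = 0.0675, limma), control replicate 2 (0.0507), control replicate 3 (0.0557) or OA replicate 2 (0.0793), with log2 changes of 0.49 to 0.56.

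Nr4a1 was at 87.13, 92.62 and 74.75 TPM without OA and at 107.62, 117.23 and 115.54 TPM with it. Here the spread lay in the controls, where replicate 3 was low, and the OA libraries were close together. The mean rose from 84.8 ± 9.15 to 113 ± 5.13 TPM, or 1.34-fold (log2 0.42, SE 0.094, 95% interval 0.18 to 0.66, adjusted p = 0.026, limma). Leaving out the low control library brought the log2 change to 0.33, still called (adjusted p = 0.0431, limma). The call was lost without control replicate 1 (adjusted p = 0.0662, limma) and without OA replicate 2 (0.0793).

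Dusp1 was the most abundant of the 4 transcripts, at 109.85, 113.31 and 108.55 TPM in control and 135.80, 134.94 and 148.83 TPM after OA. Its control libraries lay within 4.76 TPM of each other and the lowest OA library was 21.6 TPM above the highest of them, the widest gap of the 4 genes. The mean rose from 111 ± 2.46 to 139.9 ± 7.78 TPM, or 1.26-fold (log2 0.34, SE 0.059, 95% interval 0.19 to 0.48, adjusted p = 0.026, limma). Dusp6 stood at 60.32, 59.47 and 54.39 TPM in control and 70.61, 75.29 and 75.72 TPM after OA. Both groups were tight, and again control replicate 3 was the lowest library. The mean rose from 58.1 ± 3.21 to 73.9 ± 2.83 TPM, or 1.27-fold (log2 0.34, SE 0.063, 95% interval 0.18 to 0.50, adjusted p = 0.026, limma). For both phosphatase genes the call was lost without control replicate 1 (adjusted p = 0.0662 for each, limma) and without OA replicate 2 (0.0793 for each). Their log2 changes without these libraries were 0.33 and 0.36 for Dusp1 and 0.37 and 0.33 for Dusp6. In those settings limma called 0 genes of the whole table in either direction, against unadjusted p under 0.05 for 171 higher and 168 lower genes without control replicate 1 and for 159 and 168 without OA replicate 2. All 4 genes had an unadjusted p under 0.05 in both.

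**Figure D2:**
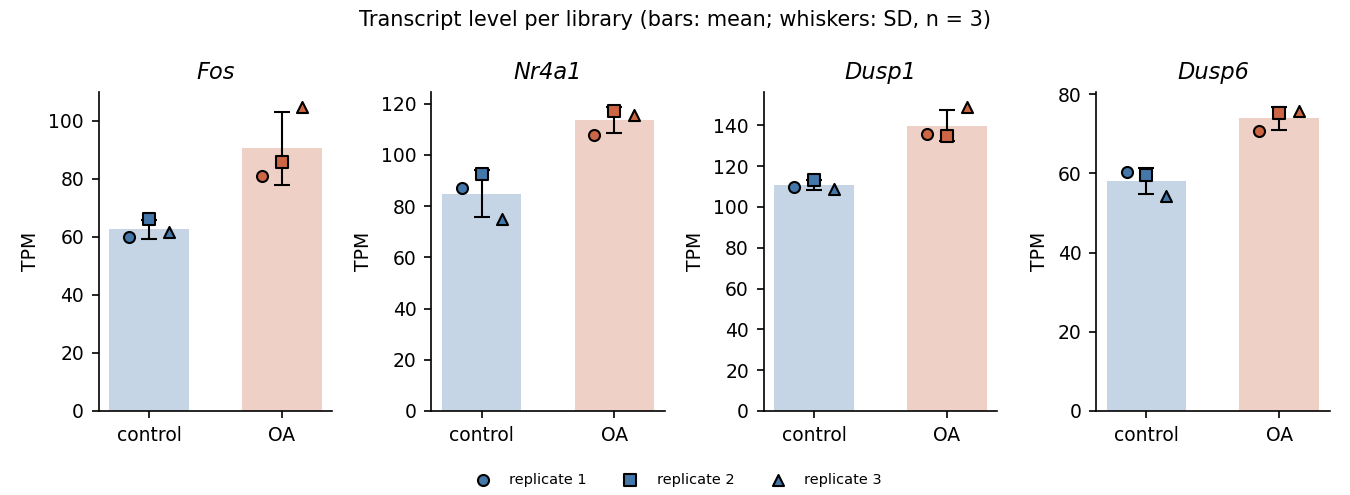
TPM of Fos, Nr4a1, Dusp1 and Dusp6 in 3 control and 3 OA libraries (points, shaped by replicate number), with the group mean (bars) and SD (whiskers). In each panel the lowest OA library is above the highest control library, and OA replicate 3 is the highest point for Fos, Dusp1 and Dusp6.

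With 3 libraries against 3, an exact two-sided permutation test on log2(TPM + 1) cannot go below p = 0.10, and each of the 4 genes reached that value (exact p = 0.1). In the authors' deposited table the log2 fold changes were 0.54 for Fos, 0.432 for Nr4a1, 0.346 for Dusp1 and 0.354 for Dusp6. The Q values in the authors' deposited table were 2.78e-05, 2.31e-05, 1.92e-05 and 6.14e-05, which rank 55, 53, 45 and 70 of 559 from the smallest. The changes were of ordinary size for the table: the median log2 change was 0.38 over the 4 genes and 0.38 over the 201 listed genes called higher, and 0.14 over all 559. Of those 201 genes, 61 rose by more than Fos and 122 by more than Dusp1 on the log2 scale.

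**Figure D3:**
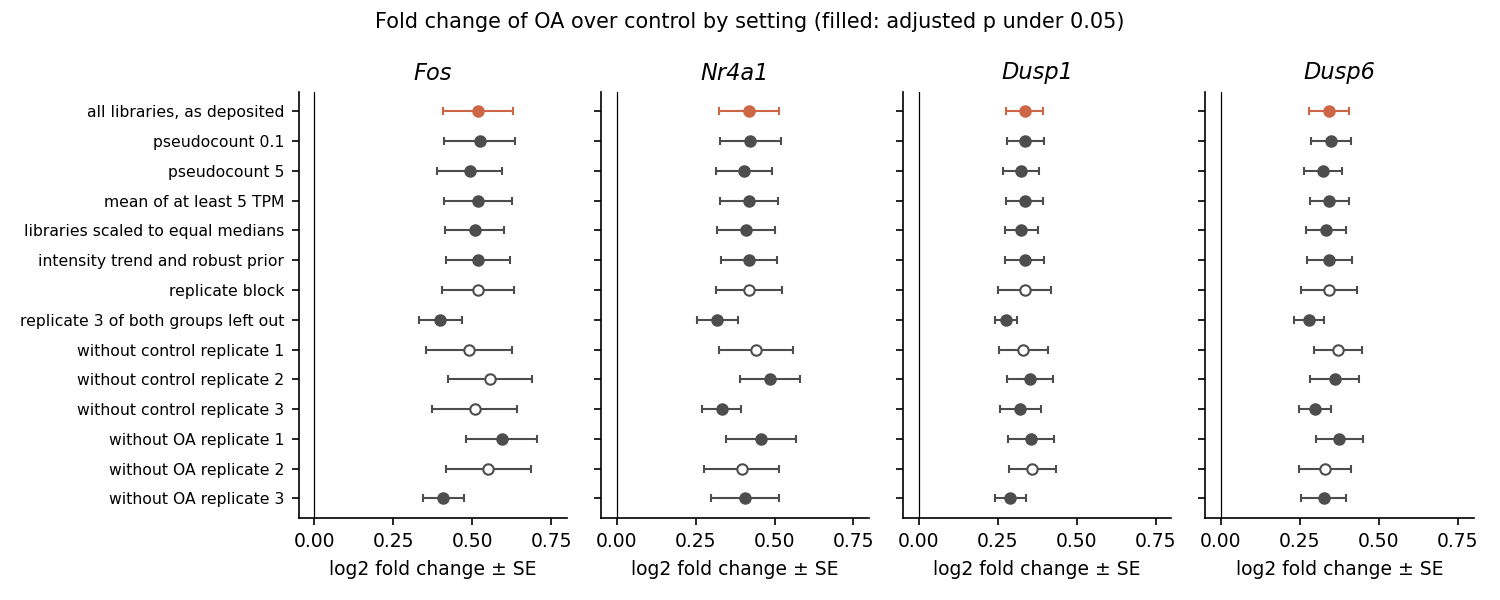
Log2 fold change of OA over control (± SE) for each of the 4 genes with all libraries as deposited (orange) and under each alternative (grey); filled points have an adjusted p under 0.05 in limma. Every estimate is above 0, from 0.28 to 0.59, and the points are open for all 4 genes under the replicate block, without control replicate 1 or OA replicate 2, and for Fos also without control replicate 2 or 3.

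TPM is corrected for length, so levels can be set side by side between genes. In control the order was Dusp1 (111 TPM), Nr4a1 (84.8), Fos (62.5) and Dusp6 (58.1). The lowest neighbours overlapped: in control replicate 1 Dusp6, at 60.32 TPM, was level with Fos, at 60.00 TPM. After OA the order was the same, at 139.9, 113, 90.4 and 73.9 TPM, and no neighbours overlapped.

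To see whether the 4 genes changed by different amounts, the log2 ratio of each pair was taken within each library and compared between the groups (6 pairs, exact two-sided permutation test, adjusted over the 6). The ratio of Fos to Dusp1 was −0.81 ± 0.046 in control and −0.63 ± 0.12 after OA (SD, n = 3 per group), without overlap. The ratio of Fos to Dusp6 went from 0.11 ± 0.099 to 0.28 ± 0.16, also without overlap. Each of these reached the smallest p the design allows (exact p = 0.1, adjusted p = 0.3). Without OA replicate 3 the differences were 0.12 and 0.083 in place of 0.18 and 0.17. Dusp1 and Dusp6 kept nearly the same ratio, 0.92 ± 0.065 in control and 0.91 ± 0.069 after OA (exact p = 0.8, adjusted p = 0.8). The remaining pairs overlapped between the groups and differed by 0.077 to 0.097. With 3 libraries against 3 no pair could have passed, so whether the sizes of the 4 changes differ could not be settled by this test.

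The deviations of log2(TPM + 1) from the group mean correlated at r = 0.95 between Fos and Dusp1 and at r = 0.91 between Nr4a1 and Dusp6. For the other pairs r lay between 0.36 and 0.46. OA replicate 3 was the highest library for Fos, Dusp1 and Dusp6, and control replicate 3 the lowest for Nr4a1, Dusp1 and Dusp6. These are descriptions over 6 libraries that share their scaling.

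The genes most like each member were taken by Pearson correlation of log2(TPM + 1) over the 6 libraries, among 486 other listed genes with a mean of at least 5 TPM. For Fos they were Slc27a1, a fatty acid transport protein (r = 0.99), the myelin protein gene Pmp22 (0.99) and the acyl-CoA dehydrogenase gene Acad11 (0.97). For Nr4a1 they were Mpeg1, a pore-forming protein of macrophages, the neutrophil collagenase gene Mmp8 and Il1rn, which encodes the interleukin 1 receptor antagonist (r = 0.9990, 0.9990 and 0.9987). For Dusp1 they were the paraoxonase gene Pon3 (r = 0.99), the transcriptional repressor gene Bhlhe41 (0.98) and Pmp22 (0.98). For Dusp6 they were the B cell coactivator gene Pou2af1, the B cell gene Mzb1 and Cpt1a, which encodes the carnitine palmitoyltransferase that admits fatty acids to mitochondria (r = 0.998, 0.997 and 0.996). Listed genes differ between the groups by selection, which raises correlations among those that rose. With the group means removed, r was 0.983, 0.913 and 0.903 for the genes named beside Fos, in that order. It was 0.996, 0.998 and 0.993 beside Nr4a1, 0.930, 0.886 and 0.905 beside Dusp1, and 0.992, 0.976 and 0.986 beside Dusp6. The genes were picked as the most alike in these same 6 libraries, so these values describe them and were not tested.

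Marker lists were read beside the NK label, and their counts stand beside 36.0% of all listed genes called higher and 40.1% called lower. Markers without an authors' Q value under 0.05 are absent from the table, so the lists cannot check the purity of the cells. Of 20 NK markers 12 were listed, all 12 fell, and their sum was 4543 to 5419 TPM in control and 2989 to 3839 TPM after OA, with Gzmb, Il2rb and Gzma the most abundant. Of 24 monocyte, macrophage and dendritic cell markers 12 were listed, 10 rose and 2 fell, and their sum went from 5537 to 6166 TPM in control to 6889.8 to 7306 TPM after OA, led by Il1b, Clec4d and Cd14. Of 15 B cell and plasma cell markers 6 were listed and 5 rose, with sums of 323 to 403 and 503 to 592 TPM. No listed marker of these lists was at 0 in every library, and the unlisted ones, among them Klrb1c, Csf1r and Ms4a1, were not analysed here. Control replicate 3, the lowest library for Nr4a1, Dusp1 and Dusp6, had the highest NK sum and the lowest myeloid and B cell sums of the controls. Of 30 heart muscle markers 19 were listed and 0 were called by limma, and their sum was 39.8 to 64.7 TPM in control and 56.3, 552 and 7432 TPM in OA replicates 1, 2 and 3, the last being the library in which Fos, Dusp1 and Dusp6 were highest. The part of these cell mixtures in the rise of the 4 genes was not tested; in bulk RNA, fewer cells of a type and less RNA per cell cannot be told apart. Without replicate 3 of both groups the log2 changes were 0.40 for Fos, 0.32 for Nr4a1, 0.28 for Dusp1 and 0.28 for Dusp6, and all 4 were called (adjusted p from 0.025 to 0.0322, limma).

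**Figure D4:**
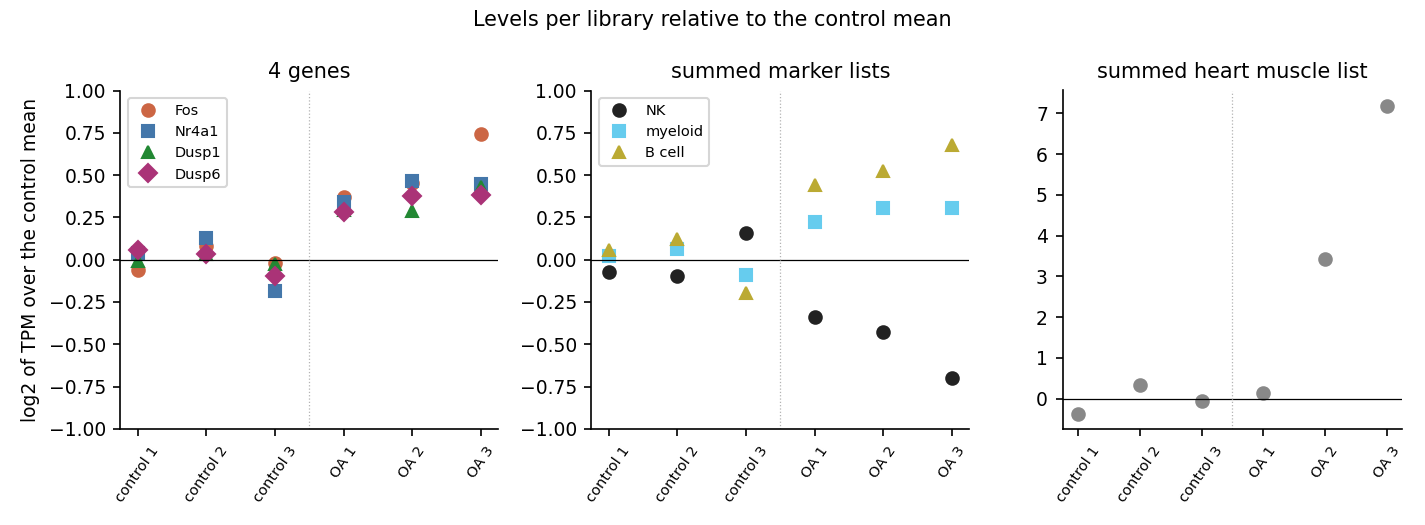
Log2 of TPM over the control mean in each library for the 4 genes (left), for summed NK, myeloid (monocyte, macrophage and dendritic cell) and B cell marker lists (middle) and for the summed heart muscle list (right, wider axis). The 4 genes, the myeloid sum and the B cell sum are higher in every OA library than in any control library, the NK sum is lower in every one, and the heart muscle sum reaches 7432 TPM in OA replicate 3.

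Around the 4 genes, 157 genes of immediate early, MAP kinase, NF-kB and heat shock responses had been put in 8 lists, and 25 of them were in the table. Of the 21 other than the 4 members, 12 rose, 5 fell and 4 did not pass, with a median log2 change of 0.22, against 36.0% higher and 40.1% lower in the whole table. With the libraries scaled to equal medians of the listed genes, 11 rose and 1 fell. The whole table then had 162 higher and 82 lower genes, where the deposited values gave 201 and 224. The listed genes were selected on this comparison, so this scaling is not a neutral correction for library size. A call lost under it does not test scaling over whole libraries. Without control replicate 1, and without OA replicate 2, limma called 0 of the 21 (with an unadjusted p under 0.05, 11 and 12 were higher and 4 and 3 lower). Without control replicate 2, 5 rose and 1 fell, beside 87 higher and 13 lower in the whole table. Leaving out control replicate 3 gave 10 higher and 1 lower, beside 119 and 30. The counts were 10 and 3 without OA replicate 1, beside 177 and 187. They were 11 and 2 without OA replicate 3, beside 174 and 138.

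Among the AP-1 subunits, 3 of 12 were listed and Fos was the 1 called higher. Jund, a partner of Fos that most cells express constantly, was at 195 ± 4.74 TPM in control and fell to 169 ± 10.8 TPM (log2 −0.21, SE 0.063, adjusted p = 0.0348, limma), a call lost with equal medians at a change of the same size (log2 −0.22, SE 0.083, adjusted p = 0.0705, limma). Junb, an inducible partner, was at 504.8 ± 15.6 and 557 ± 19.9 TPM and did not pass (adjusted p = 0.0514, limma, and 0.0413 to 0.170 over 13 alternatives). The listed AP-1 transcripts did not move in one direction. Of the 9 EGR and NR4A genes, 3 were listed and all 3 rose. The zinc finger factor gene Egr1 stood at 253.93, 265.33 and 252.32 TPM in control and 317.06, 311.82 and 316.62 TPM after OA, a rise of 1.23-fold with tight groups (log2 0.29, SE 0.045, adjusted p = 0.026, limma). Egr2 rose from 24.3 ± 3.22 to 32.2 ± 1.61 TPM, or 1.33-fold.

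Among 29 other immediate early genes, 10 were listed, of which 7 rose, 2 fell and 1 did not pass. Phlda1, which is also on the list of ERK targets, rose 1.42-fold, from 170 ± 26.4 to 243 ± 5.29 TPM. Ier3, on both lists too, rose 1.28-fold, and these 2 were the listed ones of the 16 ERK feedback and target genes. Ptgs2, which encodes cyclooxygenase 2, rose 1.29-fold, and Zfp36, which encodes tristetraprolin, a protein that binds AU-rich elements and promotes transcript decay, rose from 300 ± 8.53 to 369 ± 11.1 TPM, or 1.23-fold. Klf10, Trib1 and Ier2 rose 1.28-fold, 1.28-fold and 1.13-fold, and the call of Ier2 was lost with equal medians (log2 0.17 against 0.18 as deposited, adjusted p = 0.056, limma). The Krüppel-like factor gene Klf4 went the other way, from 22.34, 23.72 and 25.66 TPM in control to 18.00, 15.74 and 14.77 TPM after OA (log2 −0.54, SE 0.093, adjusted p = 0.026, limma), and was the 1 gene of the 21 still called lower with equal medians. Myc fell (log2 −0.22, SE 0.079, adjusted p = 0.0465, limma), a call lost with equal medians at a like change (log2 −0.23, SE 0.10, adjusted p = 0.0841), and the early activation antigen gene Cd69 did not pass (log2 −0.22, adjusted p = 0.0543, limma, and 0.0316 to 0.134 over 13 alternatives).

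Of 23 dual-specificity phosphatase and related genes, Dusp1 and Dusp6 were the 2 listed. Of 36 genes of the MAP kinase cascade, 1 was listed: Rasgrp1, a Ras activator downstream of lymphocyte receptors, was at 93.1 ± 4.49 TPM in control and fell to 81.9 ± 4.36 TPM (log2 −0.18, SE 0.066, adjusted p = 0.0484, limma), a call lost with equal medians at a like change (log2 −0.19, SE 0.088, adjusted p = 0.094). Of 20 NF-kB subunits and feedback genes, 5 were listed. The inhibitor gene Nfkbiz, the ribonuclease gene Zc3h12a and Cd83 rose 1.19-fold, 1.20-fold and 1.17-fold, the adhesion molecule gene Icam1 fell to 0.835 of the control level, a call lost with equal medians (log2 −0.27 against −0.26 as deposited, adjusted p = 0.0553, limma), and Tnfaip2 did not pass (adjusted p = 0.0745, limma). Of 14 heat shock genes, only Hspa8, which encodes a constantly expressed chaperone, was listed, at 2615 ± 85.7 TPM in control and 2406 ± 77.9 TPM after OA, and it did not pass (adjusted p = 0.077, limma).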

How the data were processed

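The labels describe 3 control and 3 OA libraries of splenic NK cell RNA. Bowtie2, RSEM 1.3.1, DESeq2 1.4.5 and mm10 (another name of GRCm38) are named in the submitters' processing notes, without roles. The authors deposited 1 table of 559 genes with, per the file headers, TPM for each library, group mean TPM, a log2 fold change computed by the authors, and their P value and Q value; no Q value was above 0.0499.

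Columns were matched to samples by title. As the unit was TPM, limma 3.58.1 (R 4.3.3) was run on log2(TPM + 1) over all 559 genes with no filter or covariate, two-sided, with Benjamini-Hochberg adjustment. Fold changes on that scale understate the change of low genes. On data simulated with the spread of these 559 genes, limma called 41.8% of planted log2 changes of 0.25, 73.2% of 0.5 and 1.27% of unchanged genes; the real genes were selected, so these shares do not carry over. Ratios were taken with Python 3.11.15, numpy 2.4.6, pandas 2.3.3 and scipy 1.17.1, plots with matplotlib 3.10.9. Promoters are from RefSeq (4 of 4 members matched by symbol), and 3′ UTRs from GENCODE M21.

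The members and gene lists were chosen with earlier results of these data known. Named genes were the members, up to 8 listed genes of each pathway list by adjusted p, the 3 most abundant of each marker list and the 3 most like each member; Myc and Cd69, outside that rule, were named after their values were seen. Other lists gave 1 higher and 1 lower among 2 listed markers of neutrophils, mast cells and basophils, 2 lower of 2 listed T cell markers, 1 higher of 2 erythroid and megakaryocyte markers, and 0 called of 1 stromal marker. Alternatives were other pseudocounts, a level filter, equal medians of the listed genes, another variance prior, a stricter threshold and a replicate block. Fits without 1 library or without replicate 3 of both groups were also run.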

Additional observations from a re-analysis of the deposited data

How the results depend on the processing

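The 4 genes stayed higher in OA in every setting run, which for groups that do not overlap leaving out libraries could not have changed. They were called with pseudocounts of 0.1 and 5, a minimum mean of 5 TPM, equal medians, a trended robust prior, and without replicate 3 of both groups. At an adjusted p under 0.01 in limma, the log2 changes of 0.52 (Fos), 0.42 (Nr4a1), 0.34 (Dusp1) and 0.34 (Dusp6) were not called: 0 of the 4, 0 of the 21 other pathway genes and 0 of the table were called higher, with 4, 13 and 213 higher at an unadjusted p under 0.05. With the replicate number as a block the log2 changes were the same 0.52, 0.42, 0.34 and 0.34, but the adjusted p was 0.115 for each in limma, and 0 members, 0 other pathway genes and 0 of the table were called higher (4, 10 and 149 unadjusted). The labels state no pairing of the libraries. Deviations of same-numbered libraries correlated at 0.33, −0.11 and −0.08 over the 559 genes, and 1 of the 3 pairs was over 0.1. With 3 libraries per group, deviations within a group depend on each other, so these correlations cannot decide whether libraries were paired. Leaving out each library in turn gave log2 changes of 0.41 to 0.59 for Fos, 0.33 to 0.49 for Nr4a1, 0.29 to 0.36 for Dusp1 and 0.30 to 0.37 for Dusp6. It gave 0 to 4 members, 0 to 11 other pathway genes and 0 to 177 genes of the table called higher; the cause was not tested. The 6 pairwise ratios, run with the pseudocounts and with each library left out, could not have passed at these numbers of libraries. Depth is unknown, so counting error could not be separated from the spread between libraries.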

Other observations

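Among listed genes with a 3′ UTR in GENCODE M21 (547 of 559), 36.2% held 3 or more copies of ATTTA, as Fos, Nr4a1 and Dusp1 do. The share was 44.2% of 199 genes called higher after OA and 34.9% of 218 called lower, against 33.3% of 20999 coding genes. Fos, Nr4a1 and Dusp1 are themselves among the 199. The median number of copies was 2 in both directions, and the median 3′ UTR was 943 bases in genes called higher and 910.5 in genes called lower. These shares were looked at after the copies in the 4 members were seen and were not tested.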
